A study of Mus musculus with 16 samples.

Results

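The genes described here encode the synaptic vesicle and its release machinery, the proteins that fill, dock, fuse and retrieve the vesicles of the presynaptic terminal. They were chosen by name, as the rows of the expression tables whose symbol stands on a list of 38 genes, and all 38 were found among the 22440 genes of each table. They fall into 9 roles, which are synapsins, vesicle membrane proteins, vesicular glutamate transporters, calcium sensors and other C2 domain proteins, SNARE proteins, SNARE regulators, SNARE disassembly factors, Rab3 GTPases and endocytosis proteins. A synaptic vesicle is loaded with glutamate by a vesicular transporter, tethered by synapsins and Rab3, and fused with the plasma membrane when the vesicle SNARE synaptobrevin zips together with syntaxin and SNAP25 at the plasma membrane. Synaptotagmins sense the calcium that triggers this step, complexins hold the SNARE complex ready, NSF and the SNAP adaptors take spent complexes apart, and a clathrin and dynamin pathway recovers the membrane. In cortical cultures these transcripts come mainly from neurons and become abundant as synapses form.

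The study asked how DNA breaks made during neuronal activity relate to early-response gene expression. It used primary cortical neurons of Swiss-Webster mouse embryos at embryonic day 16, kept in Neurobasal medium with B27 supplement. The series holds 16 samples, of which 4 RNA-seq libraries were used and 12 chromatin samples were not analysed here. Of these 4, the etoposide library was treated with 5 µM of the drug for a time that the labels do not state, and its partner is called the etoposide control here. The NMDA library was treated with 50 µM NMDA, which the labels put at 10 min plus a recovery of 10 min in most experiments, and its partner, the second of the control titles, is called the NMDA control. Etoposide is an inhibitor that leaves topoisomerase II bound to cut DNA, and NMDA is an agonist of the NMDA type of glutamate receptor. No genotype other than the outbred strain is given, neither control title mentions a treatment, and how many embryos or plates went into a library is not stated. Each group had 1 library, so no difference has a replicate check, no p-value is given, and higher and lower describe these libraries alone.

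Values are FPKM, the fragments per kilobase of transcript scaled to the fragment total of the library. Steps between low values put the worth of 1 fragment on 1 kb at 0.0522 to 0.0846 FPKM, with the etoposide library the shallowest. FPKM of at least 1 was listed for 9836 to 12886 genes. Neuronal markers were abundant in every library (Tubb3, neuronal tubulin, at 101 FPKM or above), while the summed FPKM of 6 microglial markers was at most 4.24. Astrocyte, oligodendrocyte and progenitor markers were present, and their sums were higher in the NMDA pair than in the etoposide pair. Most genes had higher FPKM there. Over genes at 1 FPKM or above in both controls, the median ratio of the NMDA control to the etoposide control was 2.95. The same ratio was 7.47, 8.83 and 4.61 for the astrocyte, oligodendrocyte and progenitor sums, and 2.80 for the neuronal sum. The cultures thus held neurons, as labelled, with markers of glia and progenitors beside them. In the etoposide control 2 of 7 oligodendrocyte and 3 of 6 progenitor markers reached 1 FPKM, and in the NMDA control all did. Which cells carried these markers was not tested.

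Most of these genes were abundant. In the etoposide control 37 of 38 were at 1 FPKM or above and 31 lay above the median of all genes at that level, which was 5.13 FPKM. Snap25, the SNARE of the plasma membrane, was the highest at 119 FPKM, and the vesicle proteins Syp (synaptophysin, 102 FPKM) and Vamp2 (synaptobrevin, 66.6 FPKM) followed. The least abundant was Syt2, a synaptotagmin of fast-spiking synapses, at 0.189 and 0.0666 FPKM in the etoposide pair (control first, treated second, as in all such pairs of values below) and at 0.357 and 0.434 FPKM in the NMDA pair. It stayed below 1 FPKM everywhere and entered no comparison, so 37 genes are compared below. The order at the top differed between the pairs of libraries. Snap25 led in the etoposide pair and Syp in the NMDA pair, where Syp stood at 406 and 430 FPKM. Within the summed FPKM of the 38 genes, a measure that does not depend on how a library was scaled, Syp took 9.30%, 7.20%, 14.6% and 14.4% in the etoposide control, etoposide, NMDA control and NMDA libraries. Snap25 took 10.8%, 12.3%, 6.84% and 6.54% in the same order. For both genes the share differed more between the untreated cultures than between a treated culture and its own control.

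**Figure D1:**
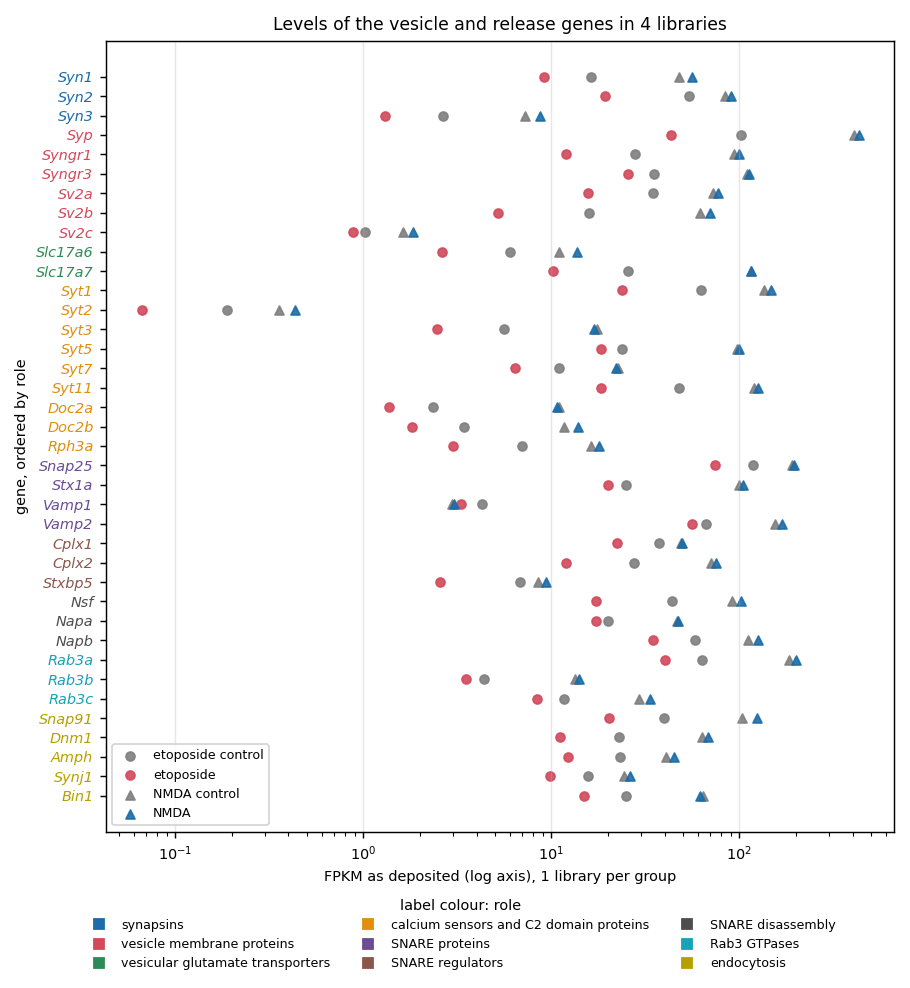
FPKM of the 38 genes on a log axis, with 1 point per library, ordered and coloured by role. In the etoposide pair (circles) every etoposide point lies to the left of its control, while in the NMDA pair (triangles) the 2 points of a gene nearly coincide.

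With etoposide, most genes of the release machinery were lower than in the control, and lower also against the bulk of other genes. Syn2, Sv2b, Syt1 and Syt11 lay furthest below that bulk, while 6 genes lay above it, the SNARE genes Vamp2, Stx1a and Vamp1 with Napa, Rab3b and Sv2c. All 37 compared genes had a lower FPKM in the etoposide library, as did 76.7% of all 10681 genes compared, so the tables are shifted as a whole. On that scale as deposited, 11 members (29.7%) had a log2 fold of -1 or less, beside 7.36% of all genes. To allow for the shift, the log2 fold, taken as log2 of (treated FPKM + 1)/(control FPKM + 1), was set against its median over every gene that reached 1 FPKM in one library of the pair or both, which was -0.32, and is called the relative log2 fold. It was below 0 for 31 of 37 members, against 50% of all genes by construction, and the median of the members was -0.41 with a middle range of -0.81 to -0.17. For all genes the middle range was -0.30 to 0.30, and 18.1% of all genes lay below the median of the members. The summed FPKM of the 38 genes was 1099 in the control and 601 with etoposide, a ratio of 0.547. Taken gene by gene, the median ratio of the 38 genes was 0.532. That of all genes at 1 FPKM or above in both libraries was 0.762. A relative log2 fold of -1 or less was seen for 4 of 37 members, which was 10.8% against 2.08% of all genes, and one of 1 or more for 0 members, against 1.47% of all genes. Just inside this limit lay Syt1 at -1.02 and Syt11 at -1.01, and just outside it Nsf at -0.98. The count moved with the settings, from 0 among genes at 10 FPKM or above (2.60% of all genes there) to 10 with no minimum (2.90%). The authors' deposited table listed 5 of the 37 as lower with etoposide, which was 13.5% against 6.28% of all genes compared, and 0 as higher, against 0.0936%. Of the 4 members at -1 or less, Sv2b was listed there, and Syn2, Syt1 and Syt11 were not.

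Neuronal markers were lower with etoposide too. The 6 neuronal markers measured had a summed FPKM of 300.4 in the control and 161 with etoposide, a ratio of 0.537, and all 6 lay below the median of all genes with a median relative log2 fold of -0.34. Tubb3 made up most of that sum, and the other 5 markers summed to 91.2 and 59.9 FPKM, a ratio of 0.657. Single ratios ran from 0.298 (Rbfox3) to 0.776 (Nefl). Excitatory and inhibitory neuron markers had ratios of 0.651 and 0.642. Of the other cell types, the ratio was 0.509 for 7 astrocyte markers, 0.262 for 7 oligodendrocyte lineage markers, 0.348 for 6 progenitor markers and 0.0960 for 6 vascular markers, with Cldn5 at 0 in both libraries and Kdr at 0 with etoposide. In the control, Olig1, Vim and Acta2 made up most of the oligodendrocyte, progenitor and vascular sums. Olig1 was at 16.6 and 3.36 FPKM, Vim at 72.5 and 24.4, and Acta2 at 4.61 and 0.0944. No other vascular marker was above 0.349 FPKM in this pair. Mog, of the oligodendrocyte list, was higher with etoposide, at 0.369 and 0.696 FPKM. Microglial markers summed to 0.486 and 0.456 FPKM, with C1qa at 0 in the control. The part of cell makeup in the vesicle gene difference was not tested, and in these bulk samples fewer neurons and less RNA per neuron cannot be told apart.

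**Figure D2:**
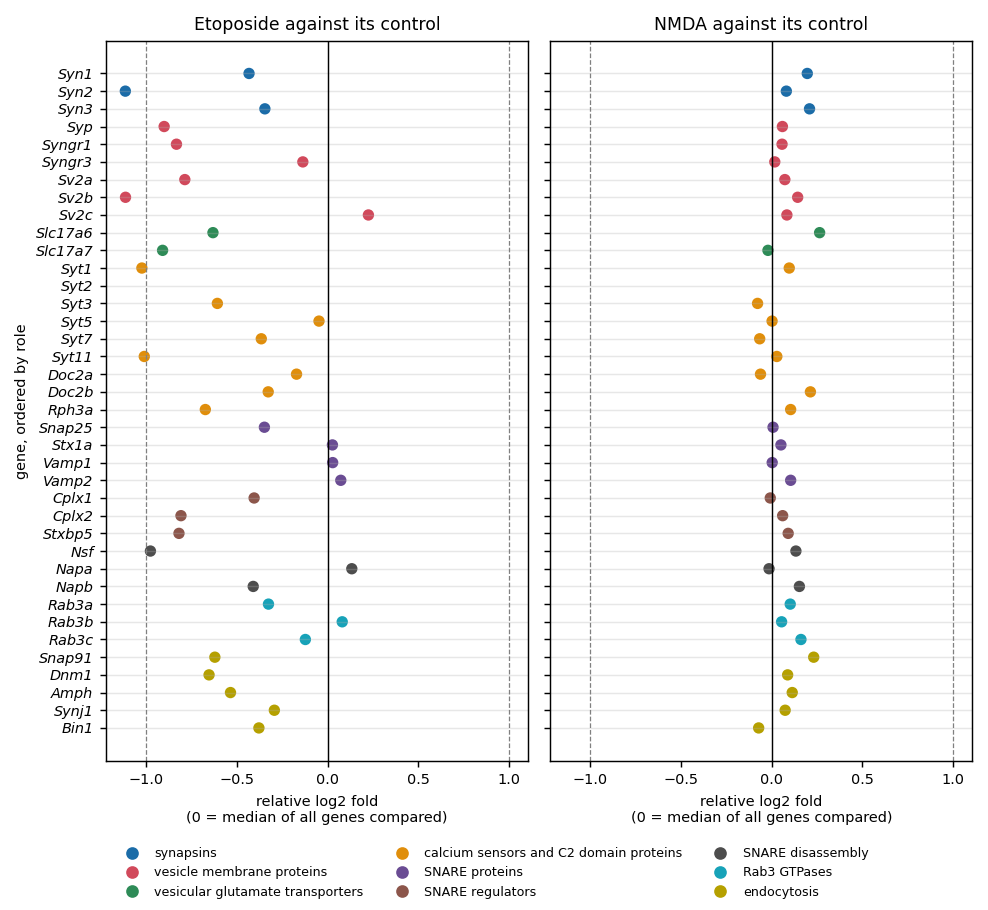
Relative log2 fold of each gene with etoposide (left) and with NMDA (right) against its own control, on the same axis, 1 point per gene coloured by role. The solid line is the median of all genes compared and the dashed lines mark 1 and -1. With etoposide the points spread from -1.11 to 0.22, and with NMDA they stay between -0.08 and 0.26.

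The synapsins, which tether vesicles in the reserve pool, were all below the median of all genes with etoposide. Syn2 (chromosome 6, 115084920 to 115232644, mm9) stood at 54.0 and 19.3 FPKM in the etoposide pair and at 83.4 and 89.9 FPKM in the NMDA pair. It was 2.79-fold lower with etoposide (exact 95% interval 2.59 to 3.02, from approximate fragment numbers and covering counting error only), at a relative log2 fold of -1.11, the lowest of all members. Its paralogs were less far down. Syn1, on the X chromosome, went from 16.2 to 9.18 FPKM (1.76-fold lower, interval 1.55 to 2.01, relative log2 fold -0.43). Syn3, the least abundant synapsin, was at 2.66 and 1.31 FPKM (relative log2 fold -0.35). Each synapsin locus in the tables is shared with a TIMP gene, a metalloprotease inhibitor that sits inside the synapsin gene. Timp4 at the Syn2 locus was at 1.52 and 0.971 FPKM, far below Syn2. Timp3 at the Syn3 locus was at 2.66 and 0.842 FPKM, as high as Syn3 itself in the control, and its exons overlap those of Syn3 on the opposite strand, which leaves Syn3 uncertain. Exons of Syn1 overlap those of Araf on the opposite strand. Araf was at 31.6 and 32.0 FPKM, above Syn1 in both libraries, so Syn1 is uncertain too.

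Among the vesicle membrane proteins the median relative log2 fold was -0.81, and 5 of 6 were below the median of all genes. Sv2b, a glycoprotein of the SV2 family (chromosome 7, 82259781 to 82454148), was at 15.8 and 5.22 FPKM in the etoposide pair and at 61.7 and 69.5 FPKM in the NMDA pair. It was 3.03-fold lower with etoposide (2.68 to 3.42), the largest plain ratio of any compared member, and is among the genes in the authors' deposited table. Sv2a, the widely expressed member of the family, went from 34.8 to 15.6 FPKM (relative log2 fold -0.79), and Sv2c from 1.02 to 0.885 FPKM. The relative value of 0.22 for Sv2c, the highest of all members, rests on a level near 1 FPKM and its plain ratio of 1.15-fold lower has an interval of 0.777 to 1.76, so its direction is not resolved by counting. Syp (chromosome X, 7215706 to 7230382) was at 102 and 43.3 FPKM (2.36-fold lower, interval 2.22 to 2.52). The synaptogyrins, relatives of synaptophysin, differed from each other. Syngr1 went from 27.9 to 12.0 FPKM (2.33-fold lower, 2.12 to 2.56), whereas Syngr3 went from 35.3 to 25.4 FPKM (1.39-fold lower, 1.25 to 1.54), and these intervals do not overlap.

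Both vesicular glutamate transporters were listed as lower with etoposide in the authors' deposited table. Slc17a7, which encodes VGLUT1 (chromosome 7, 52419291 to 52431509), was at 25.4 and 10.3 FPKM in the etoposide pair and at 115 and 115 FPKM in the NMDA pair. It was 2.48-fold lower with etoposide (2.20 to 2.80), at a relative log2 fold of -0.91. Slc17a6, which encodes VGLUT2, went from 6.00 to 2.62 FPKM (2.29-fold lower, 1.87 to 2.81). The intervals of the transporters overlap.

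All 8 compared calcium sensors and C2 domain proteins were below the median of all genes with etoposide, with a median of -0.49 and a range from -1.02 to -0.05. Syt1, the main fast calcium sensor of cortical synapses (chromosome 10, 107935314 to 108447675), was at 62.2 and 23.9 FPKM in the etoposide pair and at 135 and 147 FPKM in the NMDA pair. It was 2.60-fold lower with etoposide (2.45 to 2.77). Syt11, a synaptotagmin that does not bind calcium (chromosome 3, 88548623 to 88576521), stood at 120 and 125 FPKM in the NMDA pair and was as far down with etoposide, from 47.7 to 18.4 FPKM (2.60-fold lower, 2.43 to 2.79, relative log2 fold -1.01). Syt5 lay at the other end, at 23.9 and 18.3 FPKM (1.31-fold lower, 1.15 to 1.49, relative log2 fold -0.05). The Syt1 and Syt5 intervals do not overlap. Between them lay Rph3a (rabphilin, a Rab3 effector) at 6.95 and 2.99 FPKM, also in the authors' deposited table, Syt3 at 5.59 and 2.46, and Syt7, a slow sensor of asynchronous release, at 10.9 and 6.41. Doc2a and Doc2b, high-affinity sensors of spontaneous release, were at 2.33 and 1.37 FPKM and at 3.41 and 1.81 FPKM.

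The SNARE proteins, which carry out fusion, were the role nearest to the bulk of genes, with a median of 0.03 and 3 of 4 above the median of all genes. Vamp2 (chromosome 11, 68902030 to 68905883) was at 66.6 and 55.9 FPKM in the etoposide pair and at 155 and 170 FPKM in the NMDA pair. It was 1.19-fold lower with etoposide (1.11 to 1.28), less than the typical gene, so its relative log2 fold was 0.07. Stx1a, syntaxin of the plasma membrane, was at 24.9 and 20.1 FPKM (relative log2 fold 0.03), and Vamp1 at 4.29 and 3.31 FPKM (also 0.03). These small values above 0 depended on the settings. With no FPKM minimum, Vamp2 lay at -0.13, and Stx1a and Vamp1 both at -0.18. Snap25 was the exception among the SNARE proteins (chromosome 2, 136539186 to 136608164), going from 119 to 74.1 FPKM (1.60-fold lower, 1.51 to 1.69, relative log2 fold -0.35). The interval of Snap25 lies wholly above that of Vamp2.

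The regulators that act on the SNARE complex had a median of -0.81, with all 3 below the median of all genes. Stxbp5 (tomosyn), an inhibitor that competes with synaptobrevin, was at 6.84 and 2.56 FPKM, 2.68-fold lower (2.33 to 3.07), and the fifth of the members in the authors' deposited table. Cplx2 went from 27.4 to 12.0 FPKM (2.29-fold lower, 2.10 to 2.50) and Cplx1 from 37.5 to 22.3 FPKM (1.68-fold lower, 1.52 to 1.86). Both are complexins, which clamp and prime the SNARE complex, and their intervals do not overlap. Among the factors that take SNARE complexes apart, the ATPase Nsf went from 44.0 to 17.3 FPKM (2.54-fold lower, 2.34 to 2.76, relative log2 fold -0.98). Its adaptors differed. Napb, the brain form of SNAP, went from 58.3 to 34.7 FPKM (1.68-fold lower, 1.59 to 1.78), while Napa, the ubiquitous form, stood at 19.9 and 17.4 FPKM (1.15-fold lower, 1.02 to 1.29, relative log2 fold 0.13).

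The Rab3 GTPases, which guide vesicles to the release site, lay close to the bulk of genes, with a median of -0.12. Rab3a, the main synaptic form, went from 63.6 to 40.2 FPKM (1.58-fold lower, 1.45 to 1.73, relative log2 fold -0.33). Rab3c was at 11.7 and 8.35 FPKM (relative log2 fold -0.12), and Rab3b at 4.36 and 3.54 FPKM (0.08). Exons of Rab3a, Rab3b, Syn1, Syp, Sv2b, Syt7, Doc2a, Doc2b and Synj1 overlap an exon of another gene on the opposite strand, and whether the counting told strands apart is not stated, so these values are uncertain to that extent. At the Synj1 locus, Gcfc1 was higher with etoposide (6.81 and 10.4 FPKM).

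All 5 endocytosis genes were below the median of all genes with etoposide, at a median of -0.53 and within the narrow range of -0.65 to -0.29. Dnm1, the neuronal dynamin that pinches off vesicles, went from 22.9 to 11.2 FPKM (2.05-fold lower, 1.86 to 2.26). Snap91, a clathrin assembly adaptor, went from 39.9 to 20.3 FPKM (1.97-fold lower, 1.81 to 2.14), and Amph, a membrane-bending partner of dynamin, from 23.1 to 12.3 FPKM. Its relative Bin1 was 1.67-fold lower (1.48 to 1.87, relative log2 fold -0.38). Synj1, the lipid phosphatase that uncoats vesicles, was at 15.6 and 9.84 FPKM (-0.29). No endocytosis gene passed the size limit.

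**Figure D3:**
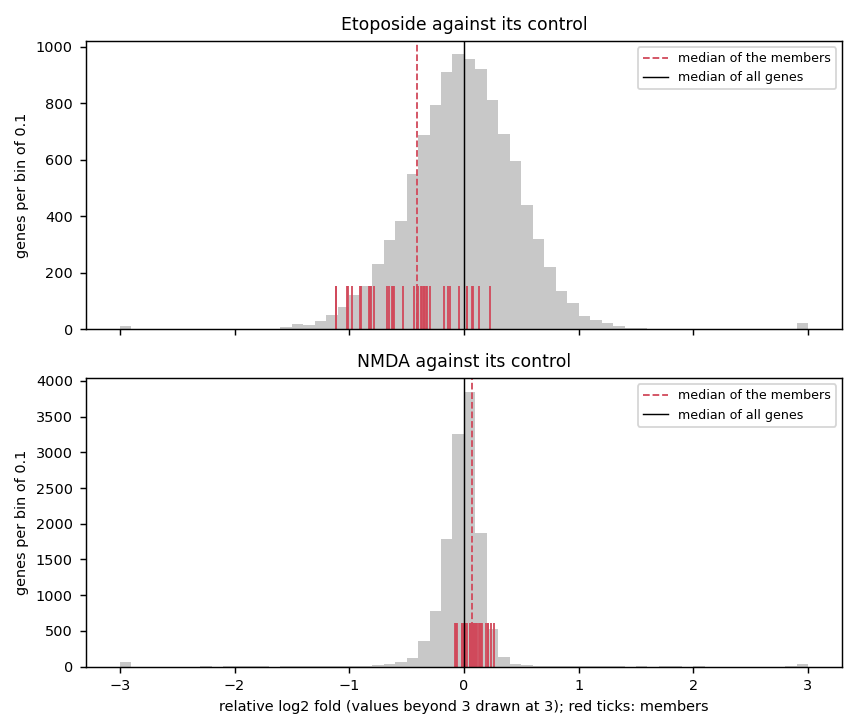
Distribution of the relative log2 fold of all genes compared (grey bars, genes per bin of 0.1) with etoposide (top) and NMDA (bottom). Red ticks are the 37 vesicle and release genes and the dashed line is their median, -0.41 with etoposide and 0.07 with NMDA.

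Across all genes, longer loci had lower values with etoposide, so the vesicle genes were also set beside genes of like span. The locus spans of the members run from 3.85 kb (Vamp2) to 512 kb (Syt1). Of the 11 members over 100 kb, the median relative log2 fold was -0.62, beside -0.39 for all 1720 genes of that class, and 7 of the 11 lay below the class median. Of the 26 members of at most 100 kb, the median was -0.39, beside 0.06 for all 8961 genes of that class, and 23 of the 26 lay below the class median. Most members of at most 100 kb were therefore low beside that class, which covers a wide range of spans. A listed locus can take in neighbouring genes, so Synj1 counts as 108 kb although its own gene spans 75.2 kb. Among genes with a locus of their own, the 7 members over 100 kb had a median of -0.62, beside -0.45 for their class. The 21 members of at most 100 kb had -0.40, beside 0.06. Slc17a7 (12.2 kb), Cplx2 (12.6 kb) and Syp (14.7 kb) had relative log2 folds of -0.91, -0.81 and -0.90. Long members were not uniformly low, since Syn3 (450 kb) and Rab3c (226 kb) had -0.35 and -0.12. Spearman's rho of the relative log2 fold with span was -0.25 over the 37 members and -0.44 over all 10681 genes, which come from the same libraries and are not independent. With the longest transcript length, rho was -0.40 over the members and -0.45 over 10536 genes.

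**Figure D4:**
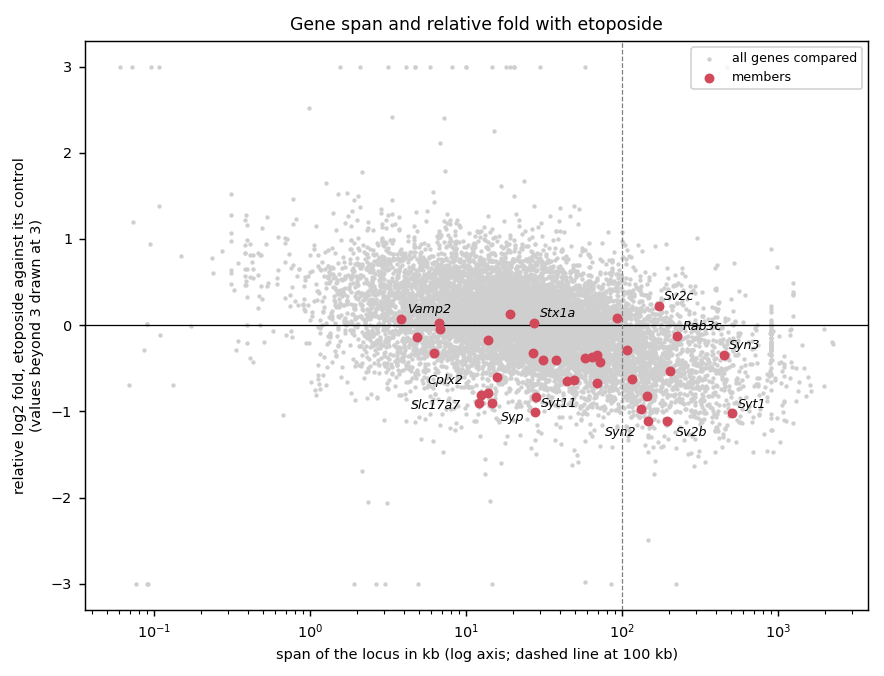
Relative log2 fold with etoposide against locus span on a log axis, for all genes compared (grey) and the 37 members (red, some named). Left of the dashed line at 100 kb most members lie under 0, and right of it Sv2c, Rab3c and Syn3 lie higher than Syt1, Sv2b and Syn2.

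The etoposide library was also set against the NMDA control. There the median of the members was -0.45 and 26 of 37 were below the median of all genes, beside -0.41 and 31 against its own control. With median scaling added, a setting chosen after seeing the data, the median was -0.10 and 22 of 37 were below. The values that follow are against its own control and then against the NMDA control with median scaling, so they differ in both choices. For Sv2b the relative log2 fold was -1.11 and -1.42, for Slc17a7 -0.91 and -1.36, and for Syp -0.90 and -1.13. These 3 of 37 members were at -1 or less in that setting, as were 11.0% of all 12988 genes. Syn2 went the other way, at -1.11 and -0.01. Stxbp5 was at -0.82 and 0.33, Snap25 at -0.35 and 0.74, Synj1 at -0.29 and 0.76 and Cplx1 at -0.40 and 0.96, so these took the opposite sign, as they also did against the NMDA control without the scaling. Vamp1 was at 0.03 and 1.94. The SNARE protein Stx1a was at 0.03 and -0.20.

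**Figure D5:**
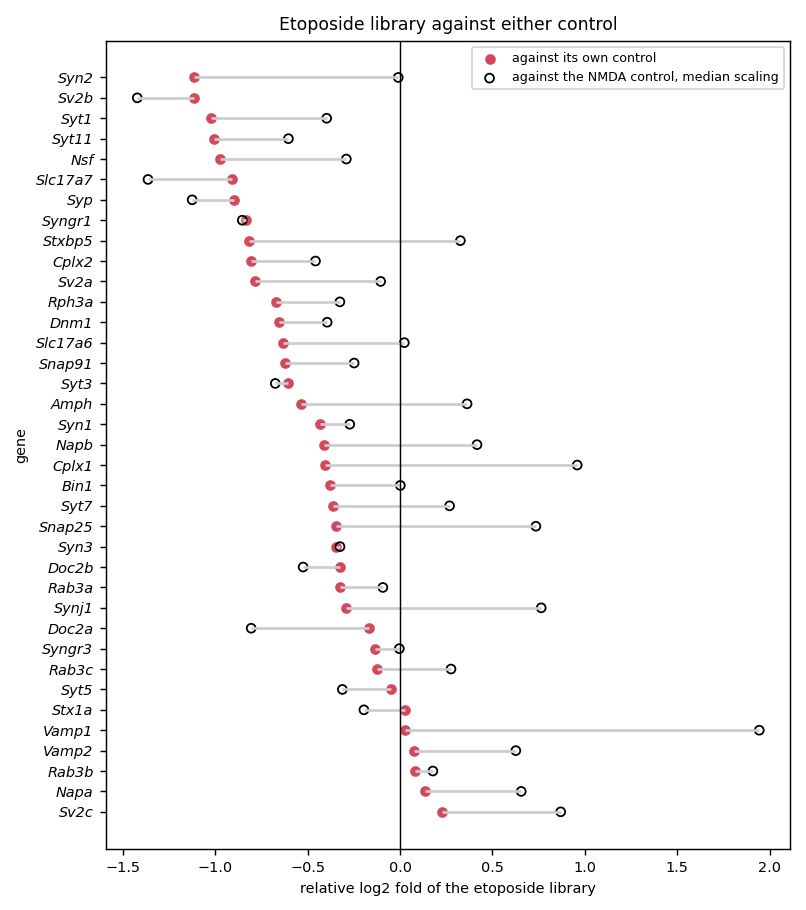
Relative log2 fold of the etoposide library for each member against its own control (red) and against the NMDA control with median scaling (open circles), joined by a line. Sv2b, Slc17a7, Syp and Syngr1 lie well below 0 on both, while Vamp1, Cplx1, Sv2c, Synj1 and Snap25 lie at 0.74 or above against the NMDA control.

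The untreated cultures differed from each other in these genes as well. In the NMDA control against the etoposide control, the median relative log2 fold of the members was -0.07, with 20 of 37 below the median of all genes and a middle range of -0.40 to 0.19. A value of -1 or less was seen for 2 members, which was 5.41% against 2.96% of all 12987 genes, and 1 or more for 0 members, against 8.02% of all genes. The 2 were Vamp1, at 4.29 FPKM in the etoposide control and 2.95 in the NMDA control (relative log2 fold -1.74), and Stxbp5 at 6.84 and 8.54 (-1.04). Vamp1 was the single member whose FPKM as deposited was lower in the NMDA control (2.70% of members, beside 1.63% of all genes). At the other end, Slc17a7 had 0.81, Syt5 0.66, Syp 0.66 and Stx1a 0.62. This comparison shares a control with each of those above, so their values are set side by side and not compared further. FPKM was higher in the NMDA control as a whole, with a median ratio of 2.95 over genes at 1 FPKM or above in both controls. Beside that, the astrocyte marker sum was 7.47-fold and the neuronal marker sum 2.80-fold as high in the NMDA control as in the etoposide control. The part of cell makeup in these values was not tested.

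With NMDA the differences in the vesicle genes were small, most of them upward. The relative log2 fold was above 0 for 30 of 37 members, against 50% of all 13028 genes by construction, with a median of 0.07 and a middle range of 0.01 to 0.11. For all genes the middle range was -0.10 to 0.08. No member reached 1 or -1, a size passed by 0.414% of all genes upward and 0.729% downward. The authors' deposited table, which lists 25 higher and 38 lower genes for NMDA, held 0 of the members (0.192% and 0.292% of the genes compared). The summed FPKM of the 38 genes was 2788 in the NMDA control and 2982 with NMDA, a ratio of 1.07, beside 1.08 for the neuronal markers and 0.958 for the astrocyte markers. Against the etoposide control the median of the members was 0.013, and with median scaling added, a setting chosen after seeing the data, it was -0.26.

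Slc17a6 (VGLUT2) had the largest relative value with NMDA, 0.26. It was at 11.0 FPKM in the NMDA control and 13.7 with NMDA, 1.24-fold higher (interval 1.14 to 1.36), whereas Slc17a7 (VGLUT1) was at 115 FPKM in both (ratio 1.00, interval 0.969 to 1.04). The transporter intervals do not overlap. Snap91 went from 103 to 124 FPKM (1.20-fold higher, 1.16 to 1.24), the next in size. The synapsins were all above 0, with Syn1 at 47.8 and 55.9 FPKM (1.17-fold higher, 1.11 to 1.23), Syn2 at 83.4 and 89.9 and Syn3 at 7.27 and 8.73. Doc2b was at 11.6 and 13.9 FPKM (1.20-fold higher, 1.10 to 1.30). On the lower side were Syt3 at 17.4 and 16.8 FPKM (relative log2 fold -0.08), Bin1 at 64.1 and 62.1 (-0.07), Syt7 at 22.7 and 22.0 (-0.07) and Doc2a at 11.0 and 10.7 (-0.06), and all 4 intervals of the ratio include 1. Among the SNARE proteins the range was 0.00 to 0.10, with Snap25 at 191 and 195 FPKM and Vamp2 at 155 and 170. The 11 members over 100 kb all lay above the median of their span class, which was 0.05, and 6 of the 26 shorter ones lay below theirs.

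The rest of the vesicle cycle was read from a list of 100 other genes, of which 99 were in the tables. With etoposide 58 of 81 compared genes were below the median of all genes, with a median relative log2 fold of -0.27, and none was past 1 in either direction. The medians were -0.43 for other vesicle proteins and transporters, -0.38 for other endocytosis genes, -0.34 for other synaptotagmins, -0.28 for the vesicle proton pump, -0.09 for priming and docking factors and 0.09 for other SNARE proteins and complexins. That last median lay near the bulk of genes, but its single genes ran from -0.37 (Napg, a SNAP adaptor) to 0.46 (Vamp4). Its complexins Cplx3 and Cplx4 stayed below 1 FPKM and were not compared. The lowest were Atp6v0a1, a neuronal subunit of the proton pump, at 36.3 and 14.3 FPKM, Dnajc6 (auxilin, which strips clathrin from vesicles) at 21.8 and 8.46, and Pacsin1, a dynamin partner, at 10.9 and 3.96. The highest were the pump subunit Atp6v1f at 36.2 and 45.1 FPKM, Vamp4 at 8.40 and 9.34 and Snap23, the widely expressed relative of Snap25, at 1.34 and 1.55. The authors' deposited table listed 4 of the 99 as lower, Dnajc6, Pacsin1, Syt17 and Stxbp5l, and none as higher, beside 6.28% and 0.0936% of all genes compared. With NMDA 52 of 87 were above the median of all genes, at a median of 0.04. Among the highest were Cltc, the clathrin heavy chain, at 138 and 172 FPKM, and Stxbp5l at 7.19 and 9.11. The lowest were Stxbp2 at 10.0 and 7.33 FPKM, Atp6v0c at 364 and 304 and Stx2 at 6.61 and 5.76.

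The promoters of the members were compared with those of other genes because most members were lower together with etoposide. RefSeq promoters (250 bases before to 50 after a start, GRCm38.p6) matched 29 of the 38 members with 40 windows. No entry was matched for Bin1, Doc2a, Doc2b, Snap25, Syn3, Syngr3, Syt5, Syt7 and Vamp2. Shown here are the 100 bases before the start of Syn2, Sv2b and Syt1, which were lowest with etoposide, of Syp, and of Stx1a and Vamp1, which lay near the bulk of genes, then the 250 bases before the start of Syn1. Syn2, Sv2b and Syt1 have further starts that are not shown, and the start used for each is the one nearest the 5′ end of its locus. Positions are the exact match of each window in mm9, and all are written 5′ to 3′ on the gene's strand. Capitals mark the motif GGGCGG (the GC box), the motif TATAAA (the TATA box), the motif TGACGTCA (the CRE, bound by the activity-regulated factor CREB) or the motif TTCAGCACC (the left arm of the RE1 element, bound by the neuronal gene repressor REST). Each was searched on both strands, and none of these matches overlaps another in the windows shown.
Syn2 (chr6:115084820-115084919, plus strand): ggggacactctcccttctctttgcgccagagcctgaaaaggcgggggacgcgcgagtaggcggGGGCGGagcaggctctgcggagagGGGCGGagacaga
Sv2b (chr7:82454149-82454248, minus strand): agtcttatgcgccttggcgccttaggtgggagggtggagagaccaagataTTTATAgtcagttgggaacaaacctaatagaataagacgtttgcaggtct
Syt1 (chr10:108448032-108448131, minus strand): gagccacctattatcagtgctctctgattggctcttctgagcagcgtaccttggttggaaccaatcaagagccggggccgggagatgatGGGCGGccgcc
Syp (chrX:7215606-7215705, plus strand): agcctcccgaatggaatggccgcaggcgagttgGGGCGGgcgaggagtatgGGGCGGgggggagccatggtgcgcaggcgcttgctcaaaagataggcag
Stx1a (chr5:135499252-135499351, plus strand): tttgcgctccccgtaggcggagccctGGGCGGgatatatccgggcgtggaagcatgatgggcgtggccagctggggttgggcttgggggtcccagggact
Vamp1 (chr6:125165499-125165598, plus strand): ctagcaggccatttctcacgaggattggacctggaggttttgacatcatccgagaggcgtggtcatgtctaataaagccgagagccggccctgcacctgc
Syn1 (chrX:20498045-20498294, minus strand): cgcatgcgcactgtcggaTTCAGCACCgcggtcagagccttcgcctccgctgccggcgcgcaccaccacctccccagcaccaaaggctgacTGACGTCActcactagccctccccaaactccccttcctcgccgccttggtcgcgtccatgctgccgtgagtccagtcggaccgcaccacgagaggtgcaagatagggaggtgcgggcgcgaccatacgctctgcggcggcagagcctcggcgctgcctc
In the bases shown, GC boxes stood before the starts of Syn2, Syt1 and Syp, which were low with etoposide. Stx1a, near the bulk of genes, had a GC box there too. Sv2b, which was low, and Vamp1, near the bulk, had none in the bases shown, but a GC box was found for both over the full windows. In these few genes the GC box therefore did not separate the low ones from those near the bulk. The TATA letters before Sv2b lie on the reverse strand. The letters before Vamp1 held none of the motifs within 100 bases. Over all member windows 60.0% held a GC box, beside 64.6% of the 9807 windows of genes compared with etoposide and 35.7% of all 32851 windows. A TATA box was found in 7.50% of member windows and 6.66% of the windows of compared genes. A CRE was found for Syn1 and Napa (5.00% beside 3.29%), and the left arm of RE1 for Syn1 alone (2.50% beside 0.449%). The EGR site GCGTGGGCG was found for Synj1 alone (2.50% beside 1.20%). The median GC content was 61.2% in member windows and 61.7% in those of compared genes. Each member share rests on 40 windows, some of them of the same gene, and describes letters in a window, not binding.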

How the data were processed

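Per the labels' protocols, paired-end libraries were made from total RNA. Per the submitters' processing notes, the tools include Cufflinks 2.0.0, Cuffdiff, TopHat and Bowtie and the build is mm9, without the role or settings of each. The FPKM values are those the authors deposited, with 22440 genes per library and 2 comparison tables for which no listing rule was found. The members and gene lists were chosen with earlier results of these data known.

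Each treated library was compared with its own control as log2 of the FPKM ratio after adding 1 FPKM (the pseudocount) to both, over genes reaching 1 FPKM in at least 1 of them. This scale understates the change of low genes. The median over all these genes was subtracted. The size limit was 1 on that scale. No test was run, since no group had a second library. Every member is named. Of the other vesicle genes the 3 highest and 3 lowest per comparison are named, except for a result that is not reported here, and the genes on the authors' list were added after their values were seen. Symbols, loci and spans came from the tables, with 1 added to each start. Transcript lengths and overlapping exons came from GENCODE M1 (mm9). Fragment numbers were FPKM times the longest coding transcript, divided by the FPKM of 1 fragment on 1 kb, read from single-exon genes over 800 bases (0.0522 to 0.0846). Intervals of ratios are exact 95% Clopper-Pearson intervals on these approximate numbers, and cover counting error only. The steps were tested on simulated data. Alternatives were the pseudocount, the FPKM minimum, median scaling, the control and genes with a shared locus. Python 3.11.15, pandas 2.3.3 and scipy 1.17.1 were used.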

Additional observations from a re-analysis of the deposited data

How the results depend on the processing

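With etoposide the members' median stayed below that of all genes under every alternative run, between -0.61 and -0.10. It was -0.31 among genes at 10 FPKM or above in either library and -0.10 against the other control with median scaling. Members above the median of all genes numbered 6, and 1 with no filter, 11 against the other control and 15 with median scaling added to that. The 4 members at -1 or less became 2 with a pseudocount of 0.1 (4.66% of all genes) and 2 with median scaling (2.08%). They became 0 at 10 FPKM or above (2.60%) and 10 with no filter (2.90%). Without members whose locus is shared they were 2 of 28 (2.08%), because Syn2 and Syt1 were themselves left out. The values of the remaining members do not change in that setting. Members at 1 or more numbered 2 against the other control, where 6.16% of all genes were, and 1 with median scaling added, where 5.97% were. With NMDA the median of 0.07 was 0.013 against the other control and -0.26 with median scaling added. There 19 and 12 members were above the median of all genes, 18 and 25 below it, and 1 and 2 at -1 or less, beside 3.31% and 2.05% of all genes. The cause of these shifts was not tested. No paired analysis was possible because each group had 1 library.

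With 1 library per group, the spread between cultures of a group is unknown, and intervals cover counting error only. Intervals are wide for members with few fragments, such as Sv2c with etoposide.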

Other observations

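Ratios between paralogs within a library do not depend on how that library was scaled, and the pairs below were chosen after their values were seen. Among the vesicular glutamate transporters, Slc17a7 over Slc17a6 was 4.23 and 3.92 in the etoposide pair (control first) and 10.4 and 8.40 in the NMDA pair. Sv2a over Sv2b was 2.20, 2.99, 1.17 and 1.11 in the same order, and Vamp2 over Vamp1 was 15.5, 16.9, 52.5 and 56.0. For the complexins, Cplx1 over Cplx2 was 1.37 and 1.86 in the etoposide pair and 0.687 and 0.655 in the NMDA pair, so the more abundant complexin differed between the pairs. For these 4 ratios the untreated cultures differed from each other more than either treated culture differed from its own control.

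Syt1 over Syt5 was 2.60 and 1.31 in the etoposide pair and 1.39 and 1.48 in the NMDA pair. Syngr1 over Syngr3 was 0.789, 0.471, 0.856 and 0.880, so etoposide stood apart from the other 3 libraries. Napb over Napa, the brain and the ubiquitous SNAP adaptor, was 2.93, 2.0, 2.37 and 2.67. Syn2 over Syn1 was 3.34, 2.10, 1.75 and 1.61, so there the etoposide control was the library that stood apart. Each library has no replicate, and these ratios were not tested.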
